A study of Homo sapiens with 6 samples.

Results

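DDX and DHX genes encode the DEAD-box and DEAH-box RNA helicases, and their messages were measured in 6 total RNA libraries of a human neuroblastoma cell line. Members were the protein-coding genes whose symbol is DDX or DHX followed by a digit, leaving out DDX1, DHX9 and DDX3Y, which gave 51 of the 60651 genes counted, 36 DDX and 15 DHX. The titles of 3 replicates carried EtOH (ethanol, the vehicle) and those of the other 3 carried Tet (tetracycline, added for 5 days per the protocol). The titles name IMR-5/75, a line with MYCN amplification, and a tag speaks of a knockdown, whereas the protocol describes SK-N-SH cells with a tetracycline-inducible MYCN transgene, kept as single clones under G418 and blasticidin. The paper describes IMR-5/75 cells with a tetracycline-inducible hairpin RNA against MYCN, kept under zeocin and blasticidin. Its model with inducible MYCN, under G418 and blasticidin, derives from SK-N-AS. The titles and the tag match the former, and the protocol text resembles the latter. Neither the cell model nor the direction of MYCN was therefore assumed, and the groups follow only what the titles say. The study asked how MYCN, a transcription factor that drives aggressive neuroblastoma, acts on RNA-binding proteins and circular RNAs.

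These helicases bind RNA and use ATP to open short duplexes or to strip proteins from RNA. DEAD-box enzymes mostly pry apart short local helices, while DEAH-box enzymes translocate along a strand and often need a G-patch protein to be switched on. Between them they act at nearly every step in the life of an RNA: assembly and release of the spliceosome, maturation of ribosomal RNA in the nucleolus, export through the nuclear pore, initiation of translation, storage and decay of messages, and sensing of viral RNA.

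The libraries held 27933212 to 40497909 counts, of which the 51 genes took 0.618 to 0.674%. At these depths 3 counts correspond to 0.0755 to 0.108 CPM (counts divided by the TMM-adjusted total of the library). MYCN itself stood at 158, 256 and 156 CPM in EtOH replicates 1 to 3 and 196.6, 200.1 and 145.4 CPM in Tet replicates 1 to 3, with overlapping groups (log2 fold change -0.07, adjusted p = 0.956 by edgeR). Of 8 noradrenergic neuroblastoma markers 6 passed the filter on low counts and their 8 genes summed to 621.5 to 680.5 CPM in EtOH and 685.5 to 833.3 CPM in Tet libraries, ranges that did not overlap, while DBH and TH did not pass. None of the 6 passed edgeR's adjusted threshold, but 3 were higher in Tet at an unadjusted p under 0.05, ISL1 (log2 fold change 1.18), PHOX2A (1.40) and GATA3 (0.36), and all 3 had groups apart. Of 8 mesenchymal or stromal markers 6 passed, their sum was 131 to 268 CPM in EtOH and 139 to 226 CPM in Tet libraries, and COL1A2 was at 0 in all libraries. These markers moved in both directions, with 0 past edgeR's adjusted threshold and 3 at an unadjusted p under 0.05, SNAI2 (1.84) and COL3A1 (1.03) higher and PRRX1 (-1.02) lower in Tet. Of the 8 proliferation genes 7 had a log2 fold change below 0 (median -0.36), 0 passed edgeR's adjusted threshold, 2 (CCNB1 and AURKA) were lower at an unadjusted p under 0.05, and their summed level was 1586 to 2369 CPM in EtOH and 1382 to 1766 CPM in Tet libraries. The part of these markers in the helicase values was not tested.

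The helicase genes spanned more than 4 orders of level. The TPM scale divides counts by exon length and scales them to a common total, so that genes of unlike length can be compared. DDX5 led at 402 ± 70.7 TPM (SD over 6 libraries), followed by DDX17 at 265 ± 33.0 and DDX21 at 234 ± 75.03 TPM. DDX5 and DDX17 are paired coregulators of splicing and transcription, and DDX21 is a nucleolar helicase of ribosomal RNA synthesis. Among DHX genes the highest were DHX15 at 120.2 ± 32.9 TPM, which takes the spent spliceosome apart, DHX40 at 120.0 ± 19.0 TPM, and DHX29 at 95.2 TPM, which helps ribosomes scan structured leaders. The spread over libraries covered the gaps between DDX17 and DDX21 and between DHX15 and DHX40, so neither order could be told apart. For scale, DHX9, which is no member, had a mean of 198 TPM, and DDX1, beside MYCN on chromosome 2, had 4354 TPM.

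At the other end, 5 genes did not pass the filter on low counts. DDX43 had 2 counts in all, both in EtOH replicate 2. DDX53 had 26 counts, and like DDX43 it is known as a cancer-testis gene. DDX60L had 15 counts, DHX58 (LGP2, a partner of the viral RNA sensors) had 16, and DDX51, a ribosome biogenesis factor, had 52. All 5 stood below 1 CPM in every library, and no fold is given for them.

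**Figure D1:**
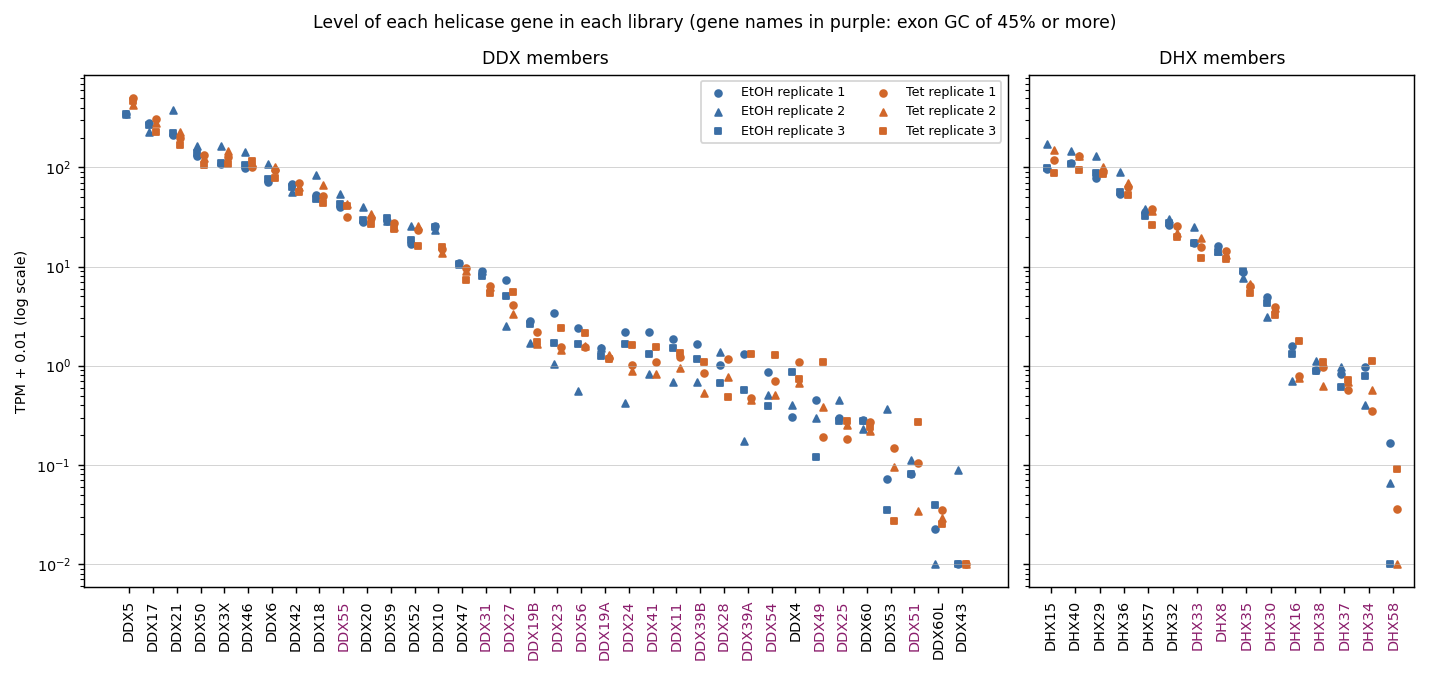
Level of each of the 51 helicase genes in each library, as TPM plus 0.01 on a log axis, DDX on the left and DHX on the right, ordered by mean; symbols mark replicates, colours mark EtOH and Tet, and purple names mark exon GC of 45% or more. DDX5 leads at a mean of 402 TPM, most of the upper ranks carry black names and most of the lower ranks purple ones.

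The level of a helicase gene went with the base composition of its exons. The 25 members with an exon GC content below 45% had a median of 57.8 TPM, and the 26 above it had a median of 1.27 TPM. No member lay between 44.2 and 46.5% GC, and the cut was placed in that gap after the values had been seen. Outside the germline and RNA-sensing genes, the 20 members below the cut ranged from 9.68 to 402 TPM and the 24 above it from 0.104 to 42.0 TPM. The Spearman rank correlation between exon GC and mean TPM was -0.86 over these 44 genes and -0.46 over all 51, and it lay between -0.83 and -0.86 in each of the 6 libraries for the 44. The same relation ran through all 12830 protein-coding genes tested, with a correlation of -0.62 and medians of 25.6 TPM below and 2.52 TPM above the cut. These are descriptions across genes, which share libraries and are not independent. TPM does not correct for base composition, and the part of library preparation in this relation was not tested. Levels of genes that differ in GC may therefore not be comparable.

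The split went through functional groups whose proteins work side by side. In the spliceosome, DHX15 (38.7% GC) had 120.2 TPM, while DHX16 (55.4% GC), which activates the assembled spliceosome, had 1.14 TPM and DHX38 (55.0% GC), which acts between the splicing steps, had 0.922 TPM. DDX46 (37.4% GC), which proofreads the branch site, had 112 TPM, against 1.90 TPM for DDX23 (51.7% GC), a U5 component, and 1.28 TPM for DDX41 (58.7% GC). In ribosome biogenesis, DDX21 (41.5% GC) stood at 234 TPM and DDX50 (42.2% GC) at 133 TPM, against 0.717 TPM for DHX37 (60.3% GC), which releases the U3 small nucleolar RNA, and 0.410 TPM for DDX49 (60.9% GC). DDX55 (47.2% GC, 42.0 TPM) and DHX33 (48.8% GC, 17.8 TPM) were the highest members above the cut. DDX39B, the export and splicing helicase UAP56, had 0.982 TPM and its paralog DDX39A had 0.706 TPM. Reads shared with overlapping genes were split in the counting, and 30.8% of the exon bases of DDX39B lay inside other genes.

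**Figure D2:**
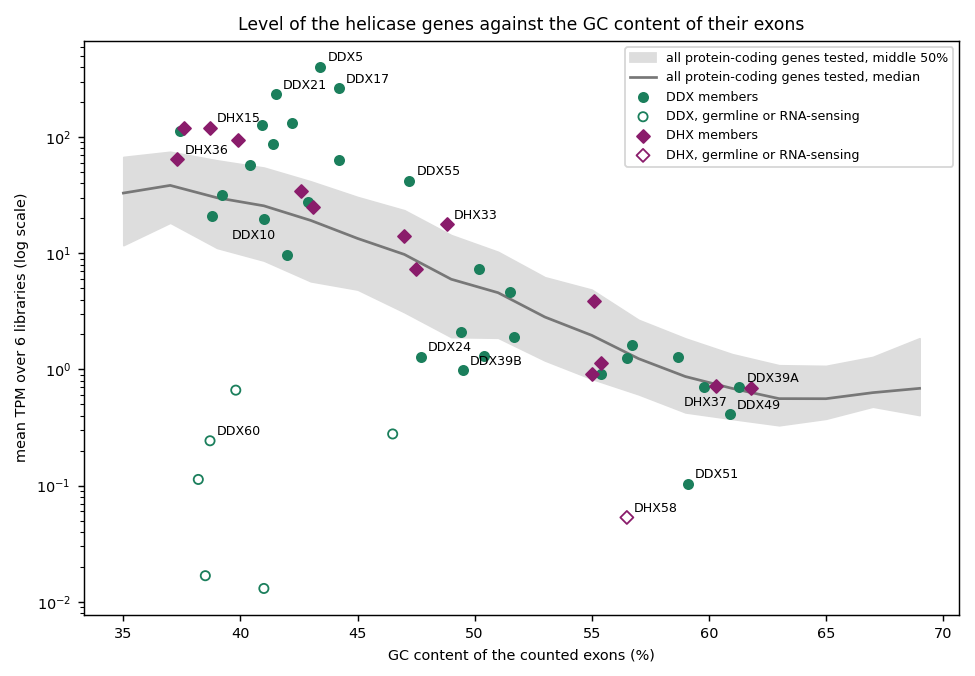
Mean TPM over 6 libraries (log axis) of each helicase gene against the GC content of its counted exons, with the median and the middle 50% of all 12830 protein-coding genes tested in grey; open symbols are germline and RNA-sensing genes. Levels fall from 402 TPM for DDX5 and 265 TPM for DDX17 to below 1 TPM for DDX49 and DDX39A, along the slope of the grey line, and the open symbols lie under it.

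Helicase motif II, where the enzyme holds the metal ion for ATP hydrolysis, is the 4-residue signature that names the families. A search of the coding sequences of the GENCODE transcripts (MANE Select, GRCh38) found it in 49 of 51 members, all but DHX32 and DHX58. The search took D, E, any residue, then D or H, and only downstream of a match to the ATP-binding motif I. It also required set kinds of residue just before the motif and a set range of distance from motif I. Where several places matched, DEAD or DEAH was taken ahead of other forms, which can raise the counts of those forms. Variants of either motif would be missed, so DHX32 and DHX58 may still carry motif II. Of the DDX genes 28 read DEAD, 2 read DECD (DDX39A and DDX39B), 2 read DEVD (DDX21 and DDX50), 2 read DEVH (DDX60 and DDX60L), 1 read DESD (DDX52) and 1 read DEAH (DDX11, a DNA helicase of another branch). Of the DHX genes 8 read DEAH, 4 read DEVH and 1 read DEIH (DHX36, which opens G-quadruplexes). The windows below give 9 bases on each side of the motif, with its codons in capitals, 5′ to 3′ on the coding strand, first for members at high levels and then for members at low levels.
DDX5: cttgtccttGATGAAGCAGATagaatgctt
DDX3X: ttggtgttaGATGAAGCTGATcggatgttg
DDX46: gttgttttaGATGAAGCAGACagaatgttt
DDX21: gttgtcctgGATGAAGTGGACcagatgttg
DDX50: gttgtgcttGATGAAGTGGATcagatgtta
DHX15: ataattcttGATGAGGCTCATgagaggaca
DHX36: atcgtacttGATGAAATCCATgaaagaaat
DHX40: attattttgGATGAAGCCCATgaaagaact
DDX41: ctggccctgGACGAGGCTGACcgcatgatc
DDX39A: tttgtgctgGACGAGTGTGACaagatgctg
DDX39B: tttattttgGATGAATGTGATaagatgctt
DHX38: atcatcatgGACGAGGCCCACgagcgctcc
DHX37: gtgatcatcGACGAGGCCCACgagaggagc

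The DDX5 window lies in coding exon sequence at chr17:64503236-64503265 on the minus strand (exon 7), and holds G or C at 12 of 30 bases. The DDX41 window, at chr5:177513733-177513762 on the minus strand (exon 10), encodes the same motif with G or C at 20 of 30 bases. The DHX15 window at chr4:24556314-24556343 (minus strand, exon 4) has 12 and the DHX38 window at chr16:72104066-72104095 (plus strand, exon 14) has 19 such bases. Over whole coding sequences, the wobble position held G or C in 35.8% of codons in DDX5 and 37.5% in DHX15, against 74.4% in DDX41 and 70.3% in DHX38. The windows did not follow the levels throughout: DDX39B, at a low level, had G or C at 8 of 30 bases, and DDX21 and DDX39A, at a high and a low level, had 15 each.

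Base composition also went with the spread between replicates. EtOH replicate 2 was the highest EtOH library for 14 of the 20 members below the cut and the lowest for 13 of the 24 above it, again without the germline and RNA-sensing genes. Its log2 ratio to the mean of EtOH replicates 1 and 3 had a median of 0.44 below the cut and -0.45 above it. Tet replicate 2 showed a like split, with medians of 0.19 and -0.41. The Spearman correlation of this ratio with exon GC was -0.60 for EtOH replicate 2 and -0.72 for Tet replicate 2 over the 44 members, and -0.41 and -0.47 over 12804 and 12822 protein-coding genes. The same 2 libraries had the lowest share of mitochondrially encoded counts, 4.12% and 5.86%, against 6.82 to 10.01% in the others. The part of RNA quality or library preparation in this spread was not tested.

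Single genes show its size. DHX15 had 96.5, 170 and 98.7 TPM in EtOH replicates 1 to 3 and 119, 149 and 88.0 TPM in Tet replicates 1 to 3. Its high library in each group was replicate 2. DDX24, a GC-richer nucleolar helicase, had 2.18, 0.409 and 1.63 TPM in EtOH and 1.01, 0.883 and 1.59 TPM in Tet libraries. There replicate 2 was the low library of each group. DDX39A had 1.31, 0.166 and 0.559 TPM in EtOH and 0.466, 0.438 and 1.30 TPM in Tet libraries, a range of 7.88-fold across the 6. Its lowest value, in EtOH replicate 2, rested on only 6 counts. DDX5, at 342, 342 and 343 TPM in the EtOH libraries, hardly moved between these replicates. The standard error (SE) of the log2 fold change of Tet against EtOH had a median of 0.17 in the tested members below the cut and 0.41 in those above it. Levels differed as well, with a median of 57.8 TPM over all members below the cut and 1.27 TPM above it. The part of low counts in these SEs was not tested.

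**Figure D3:**
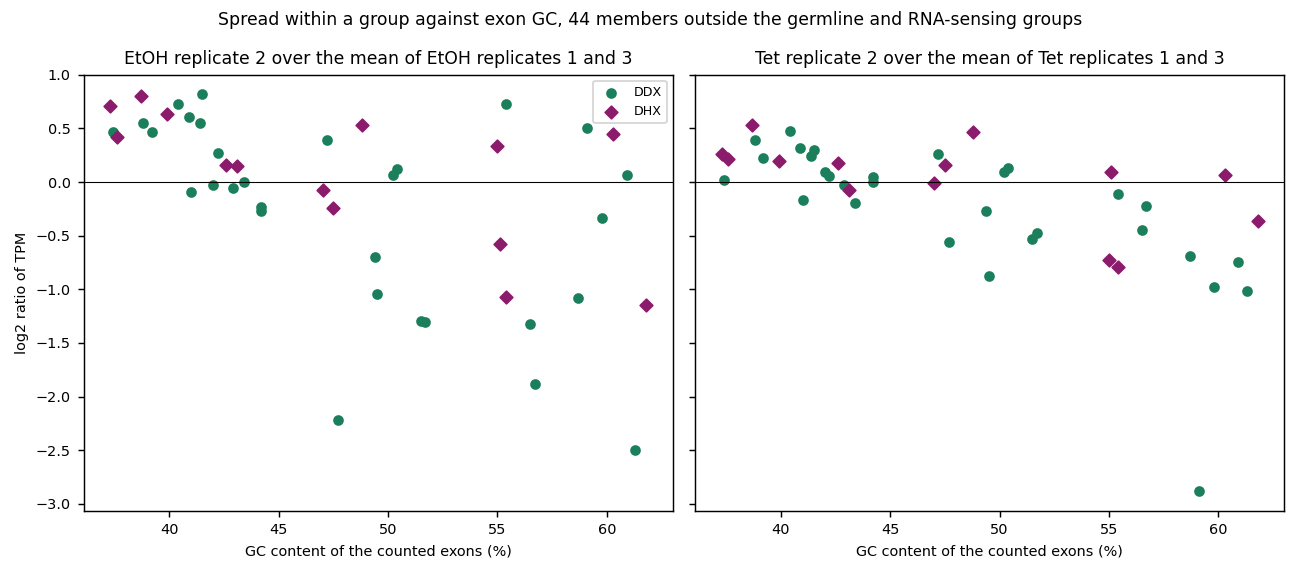
Log2 ratio of TPM in replicate 2 to the mean of replicates 1 and 3 of its group, EtOH on the left and Tet on the right, against exon GC, for 44 helicase genes. In both panels the points tend downward with GC, with medians of 0.44 and -0.45 on either side of 45% in EtOH and 0.19 and -0.41 in Tet.

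The comparison of the libraries labelled Tet with those labelled EtOH asked which helicases moved with the treatment. By edgeR's quasi-likelihood test with Benjamini-Hochberg adjustment over 22443 genes, 0 of the 46 members tested (32 DDX and 14 DHX) passed an adjusted p of 0.05, where 0.236% of all genes passed, 0.147% higher and 0.0891% lower in Tet. At an unadjusted p under 0.05 stood 3 of 46 members (10.8% of all genes). DDX10 and DDX31 were the 2 with lower values in Tet (4.94% of all genes) and DDX5 was the 1 with higher values (5.83% of all genes). DESeq2 called 1 member, DDX10 (2.23% of all genes with an adjusted p), and limma-voom called 0. Each gave the same count of 3 at an unadjusted p under 0.05. The share of all genes at that p is not given for these fits, so this count is a description only. The 3 Tet libraries did not overlap the 3 EtOH libraries for 7 of 46 members (17.5% of all genes), with Tet higher for 1, DDX5 (9.2% of all genes), and lower for 6, DDX10, DDX31, DDX47, DDX50, DHX32 and DHX35 (8.28% of all genes). In total 6.52% of members stood at an unadjusted p under 0.05 and 15.2% had groups apart, both below the shares of all genes. On simulated counts edgeR recovered 1% of 200 genes changed by a log2 fold of 1. These were drawn at random from all genes tested, and no rate was taken for the helicases or for genes at their levels. A lack of calls therefore does not show that a gene stayed unchanged. In these bulk libraries, fewer cells of a type and less RNA per cell cannot be told apart.

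Log2 fold changes below 0 were found for 32 of 46 members, where 50.7% of all genes tested lay below 0, and the median was -0.11 for the members and -0.01 for all genes. DDX genes had 20 of 32 and DHX genes 12 of 14 below 0, with medians of -0.13 and -0.03. The difference between the family medians, DHX minus DDX, was 0.10, but it was -0.03 with limma-voom and between -0.08 and 0.05 when 1 library was left out, so no order of the families held. The summed level of each family overlapped between the groups: DDX genes added up to 1552, 1872 and 1559 TPM in EtOH and 1749, 1709 and 1528 TPM in Tet libraries, and DHX genes to 522 ± 116 TPM in EtOH and 489 ± 76.0 TPM in Tet libraries (SD, n = 3 each). The DHX sum was highest in replicate 2 of each group, at 656 and 553 TPM. Below the GC cut, the 19 DDX and 6 DHX genes had medians of 31.6 and 79.7 TPM, at median exon GC of 41.0 and 39.3%. Above it, the 17 DDX and 9 DHX genes had 1.28 and 1.14 TPM, at 51.7 and 55.1%. The germline and RNA-sensing genes below the cut, DDX4, DDX43, DDX53, DDX60 and DDX60L, were all DDX genes, at 0.664 TPM or less. The medians below the cut therefore do not compare like sets of genes.

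Summed over all its members, the set above the GC cut stood lower in Tet. It came to 129.8, 129.2 and 118.8 TPM in EtOH replicates 1 to 3 and to 98.1, 109.2 and 106.5 TPM in Tet replicates 1 to 3, so the groups did not overlap. Most of that sum came from DDX55, DHX33, DHX8, DDX31 and DHX35. Of the 24 tested members above the cut, 2 had groups apart, DDX31 and DHX35, both lower in Tet (8.28% of all genes). The median log2 fold change was -0.16 for these 24 and 0.02 for the 7272 protein-coding genes tested above the cut. The members below the cut summed to 2057 ± 296 TPM in EtOH and 2046 ± 190 TPM in Tet libraries (SD, n = 3 each), with wide overlap. As the cut was set after the values had been seen, these sums are given without a test.

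**Figure D4:**
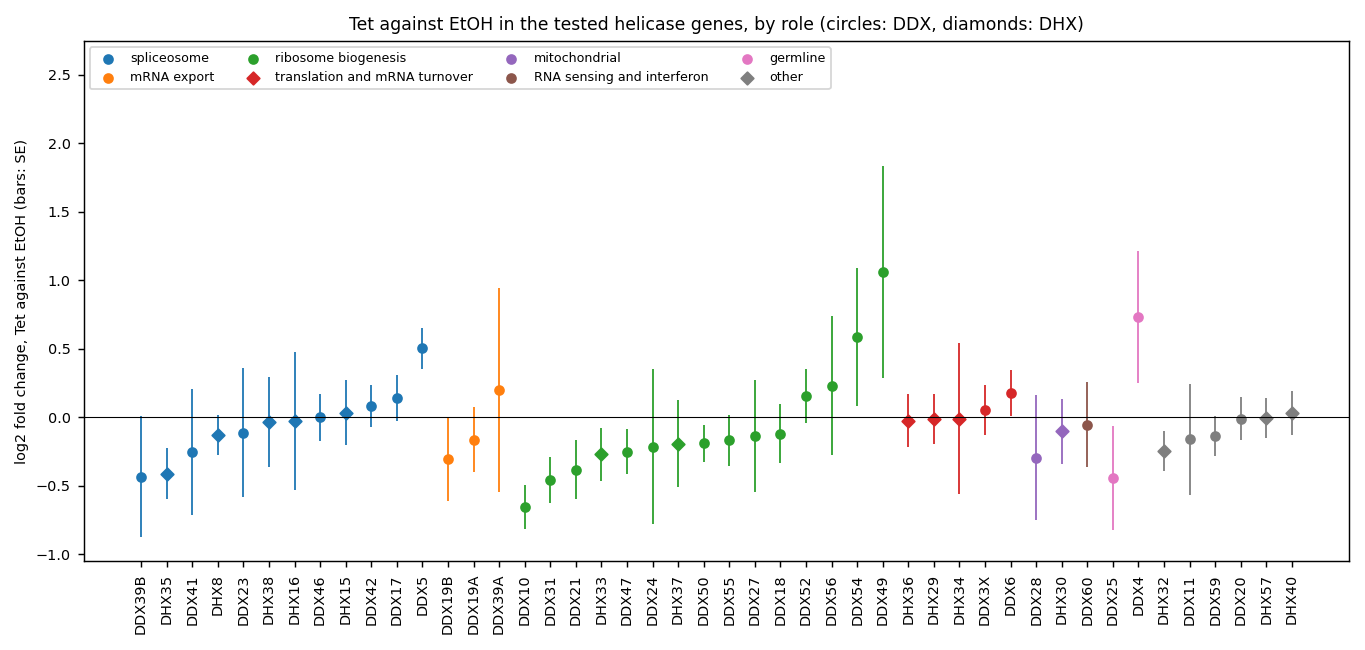
Log2 fold change of Tet against EtOH (edgeR) for the 46 helicase genes tested, grouped by role and colour, with circles for DDX, diamonds for DHX and bars of 1 SE. The nucleolar genes DDX10 (-0.66), DDX31 (-0.46) and DDX21 (-0.38) lie lowest in their group, DDX5 (0.51) is highest among spliceosome genes, and the widest bars belong to DDX49 and DDX39A.

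Ribosome biogenesis was the largest role, with 16 members of which 15 were tested. Of these 11 had a log2 fold change below 0 and 4 above it (median -0.19), where 50.7% of all genes lay below 0. By edgeR 0 passed the adjusted threshold, and 4 had Tet libraries all below the EtOH libraries (8.28% of all genes). DDX10, a nucleolar helicase of small-subunit assembly (ENSG00000178105.11, chr11:108665069-108940927, plus strand), gave the lowest p of the 46 tested. It had 80.9, 68.8 and 79.1 CPM in EtOH replicates 1 to 3 and 45.9, 43.4 and 55.9 CPM in Tet replicates 1 to 3. Every Tet library lay below every EtOH library, by a log2 fold change of -0.66 (SE 0.16, adjusted p = 0.171 by edgeR). The adjusted p was 0.0487 with DESeq2 and 0.0363 in edgeR without EtOH replicate 2 (where 2.89% of all genes were called), and it ranged from 0.0142 to 0.600 over 16 alternatives, with the log2 fold change between -0.77 and -0.58. None of its exon bases lay inside another gene.

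DDX31, a large-subunit assembly factor (ENSG00000125485.17, chr9:132592997-132670401, minus strand), had 18.6, 16.7 and 16.2 CPM in EtOH and 12.4, 12.8 and 12.4 CPM in Tet libraries. The groups were apart, with a log2 fold change of -0.46 (SE 0.17, adjusted p = 0.373 by edgeR). GTF3C4 overlaps 6.62% of its exon length. DDX21 had 392, 642 and 403 CPM in EtOH and 348, 411 and 344 CPM in Tet libraries. Its groups overlapped, since Tet replicate 2 exceeded EtOH replicates 1 and 3, at a log2 fold change of -0.38 (SE 0.21, adjusted p = 0.584 by edgeR). Without EtOH replicate 2 it was -0.11. DDX50, the DDX21 paralog next to it on chromosome 10, had 130.4, 148 and 137 CPM in EtOH and 126, 122 and 117 CPM in Tet libraries. Its groups did not overlap, but the log2 fold change was small at -0.19 (SE 0.13, adjusted p = 0.694 by edgeR). DDX47 had 20.4, 18.03 and 19.8 CPM in EtOH and 17.2, 16.7 and 15.1 CPM in Tet libraries, and 36.5% of its exon bases lay inside APOLD1.

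DHX33, linked to transcription of ribosomal DNA, had 36.8, 48.9 and 37.0 CPM in EtOH and 32.0, 40.8 and 29.0 CPM in Tet libraries. Its groups overlapped, at a log2 fold change of -0.27 (SE 0.20, adjusted p = 0.703 by edgeR). DDX18, a helicase of both ribosomal subunits, had a log2 fold change of -0.12, which was 0.12 when EtOH replicate 2 was left out. The 4 members above 0 were DDX52, DDX56, DDX54 and DDX49. DDX49 had the largest log2 fold change of the 46, 1.06, but also the largest SE, 0.77, with 0.558, 0.325 and 0.132 CPM in EtOH and 0.213, 0.451 and 1.46 CPM in Tet libraries. Only Tet replicate 3 stood out there, and the other 5 libraries overlapped.

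The spliceosome role held 12 members, all tested, 7 below and 5 above 0 (median -0.03). DDX5 (ENSG00000108654.16, chr17:64498254-64508199, minus strand) had 1181, 1077 and 1174 CPM in EtOH and 1660, 1442 and 1770 CPM in Tet libraries. All Tet libraries lay above all EtOH libraries, by a log2 fold change of 0.51 (SE 0.15, adjusted p = 0.253 by edgeR). In its exons 4.49% of bases lay inside CEP95 and 2 microRNA genes. DDX17 had 1037, 762 and 973 CPM in EtOH and 1102, 1025 and 936 CPM in Tet libraries, with overlapping groups and a log2 fold change of 0.14 (SE 0.17, adjusted p = 0.838 by edgeR). DHX35, found in the catalytic spliceosome, had 16.4, 12.8 and 16.6 CPM in EtOH and 11.2, 12.1 and 11.2 CPM in Tet libraries. Its groups did not overlap, by a log2 fold change of -0.41 (SE 0.19, adjusted p = 0.488 by edgeR).

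The remaining spliceosome members stayed near 0 or had wide errors. DHX8, which releases the finished message, had a log2 fold change of -0.13, DHX15 of 0.04, DHX38 of -0.03, DHX16 of -0.03 and DDX46 of 0.00319, and their groups overlapped. The direction of DHX15, DHX16, DHX38 and DDX46 turned when single libraries were left out. DDX23 (-0.11, SE 0.47), DDX41 (-0.25, SE 0.46) and DDX39B (-0.43, SE 0.44) had log2 fold changes within 1 SE of 0. DDX23 had 6.75, 1.88 and 3.34 CPM in EtOH and 2.98, 2.82 and 5.29 CPM in Tet libraries, a wide spread within each group.

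**Figure D5:**
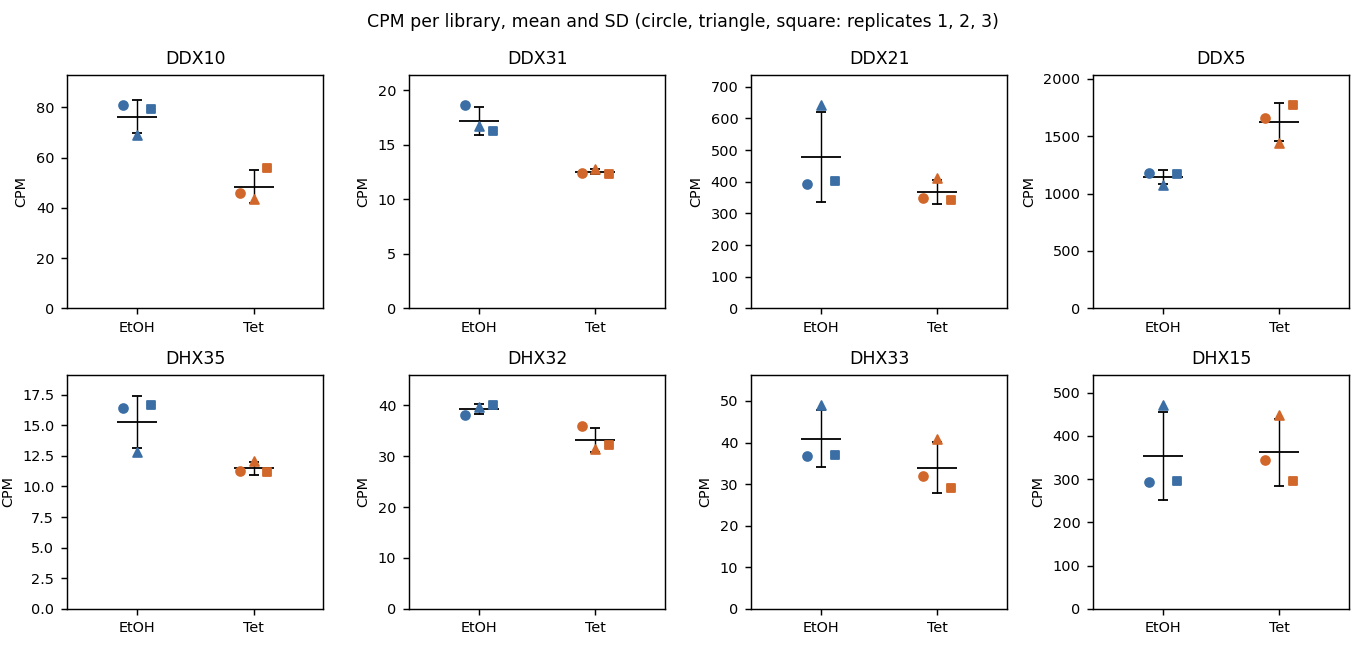
CPM of 8 helicase genes in each library, with EtOH in blue and Tet in orange, horizontal bars for the mean, error bars for the SD (n = 3), and symbols for replicates 1 to 3. DDX10, DDX31, DHX35 and DHX32 have all Tet libraries below all EtOH libraries and DDX5 has them above, while in DDX21, DHX33 and DHX15 replicate 2 stands above the others of its group.

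Among helicases of translation and message turnover, 5 members were tested, 3 below and 2 above 0 (median -0.01), and none had groups apart. DDX3X, which aids initiation on structured leaders, had 636, 889 and 641 CPM in EtOH and 707, 843 and 697 CPM in Tet libraries (log2 fold change 0.05, SE 0.18). DDX6, which represses translation and promotes decay in processing bodies, had 299, 417 and 321 CPM in EtOH and 381, 427 and 367 CPM in Tet libraries (0.18, SE 0.17). DHX29 and DHX36 had log2 fold changes of -0.01 and -0.02, and DHX34, which acts in nonsense-mediated decay, of -0.01 with an SE of 0.55. The 11 partners of DDX6 in decay gave no call either, with a median of -0.08.

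The smaller roles gave no call. The mitochondrial ribosome factors DHX30 and DDX28 had log2 fold changes of -0.10 and -0.29, and the 3 export helicases had a median of -0.16. DDX60, an interferon-induced gene, stood at 1.30 to 1.76 CPM in all 6 libraries (-0.05, SE 0.31). The viral RNA sensor RIGI, once named DDX58 and no member under its present symbol, had 11.7 to 17.4 CPM (0.04). Of the germline genes, DDX4 (VASA) had 0.418, 0.505 and 1.19 CPM in EtOH and 1.45, 0.931 and 1.13 CPM in Tet libraries, and DDX25 had 0.959 to 1.66 CPM except for 0.673 CPM in Tet replicate 1. Among the 6 other members, DHX32 had 39.3 ± 1.03 CPM in EtOH and 33.2 ± 2.40 CPM in Tet libraries (SD, n = 3 each). The lowest EtOH library, at 38.1 CPM, lay above the highest Tet library, at 35.9 CPM. The log2 fold change was -0.24 (SE 0.15, adjusted p = 0.618 by edgeR). BCCIP overlaps 10.4% of its exon length. DHX40, DHX57, DDX20, DDX59 and DDX11 had log2 fold changes between -0.16 and 0.03.

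The ratio of close paralogs within a library does not depend on how libraries are scaled, and 4 pairs were compared by exact two-sided permutation tests, which cannot give a p under 0.1 with 3 libraries against 3. The log2 ratio of DDX5 to DDX17 TPM was 0.29, 0.60 and 0.37 in EtOH replicates 1 to 3 and 0.69, 0.60 and 1.02 in Tet replicates 1 to 3. The means were 0.42 ± 0.16 and 0.77 ± 0.22 (SD, n = 3 each), a difference of 0.35 (exact permutation p = 0.2, 0.4 after Benjamini-Hochberg adjustment over the 4 pairs). EtOH replicate 2 lay just above Tet replicate 2, so the groups overlapped. The ratio of DDX21 to DDX50 differed by -0.16 (p = 0.6, exact, adjusted 0.8) and by 0.02 without EtOH replicate 2. The ratio of DDX39A to DDX39B differed by 0.86 (p = 0.2, exact, adjusted 0.4), with as few as 6 counts of a gene in a library, and by 0.41 without EtOH replicate 2 or 0.31 with a pseudocount of 1 TPM. These paralogs have unlike exon GC, 61.3 and 49.5%, and their log2 ratio was -0.32, -2.03 and -1.04 in EtOH replicates 1 to 3. The part of the GC-linked spread between libraries in this ratio was not tested. The ratio of the export helicases DDX19A to DDX19B differed by 0.11 (p = 0.8, exact, adjusted 0.8), and between -0.07 and 0.39 with 1 library left out. DDX60 and DDX60L could not be compared because DDX60L was at 0 in EtOH replicate 2. The motif II windows of DDX19A and DDX19B are the same 30 bases, shown here because a read confined to such a stretch cannot be assigned to either gene.
DDX19A: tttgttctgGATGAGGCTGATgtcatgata
DDX19B: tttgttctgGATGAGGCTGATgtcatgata

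MYCN binds DNA at E-boxes, of which CACGTG is the canonical form, so the promoters of the members were searched for it. The RefSeq promoters (GRCh38.p14, 250 bases before to 50 after the gene start) matched 46 of 51 members. The RefSeq start lay within 1000 bases of the start of the counted gene for 36 of them and further inside the gene for 10, among them DHX32 (15144 bases), DDX31 (7075 bases) and DDX5 (2262 bases). The 6 letters, which read alike on both strands, were present in 8 of 46 member promoters (17.4%), in 3 of 33 DDX (9.09%) and 5 of 13 DHX promoters (38.5%), and in 7.26% of all 35116 promoters. The 35116 promoters were not limited to protein-coding or tested genes and were not matched for GC content, so these shares do not show an excess. The member genes with a match were DDX21, DDX25, DDX54, DHX32, DHX34, DHX35, DHX37 and DHX40. Those of DDX21 and DHX35, whose values are given above, and of DDX54 and DHX40 are printed with the 6 letters in capitals.
DDX21: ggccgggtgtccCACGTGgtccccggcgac
DHX35: gctgagcagggtCACGTGggctcgggggcg
DDX54: ctcagcggaggtCACGTGgtcaccgcacct
DHX40: caaggcgaagcgCACGTGgcagttggcggg
They lie at chr10:68956604-68956633 (plus strand), chr20:38962148-38962177 (plus strand, the first of 2 matches), chr12:113185522-113185551 (minus strand) and chr17:59565448-59565477 (plus strand). The log2 fold changes of these 4 genes were -0.38, -0.41, 0.59 and 0.03, and those of the other 4 with a match were -0.44 (DDX25), -0.24 (DHX32), -0.01 (DHX34) and -0.19 (DHX37). The promoter of DDX10 held no match in this window. A match is a description of the letters and not of binding.

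Genes that work with these families gave no call, under the same limit on recovering changes. Of 20 other RNA helicases, such as EIF4A1 and UPF1, 17 were tested, and 0 passed edgeR's adjusted threshold or an unadjusted p under 0.05 (median log2 fold change -0.01). Of 22 proteins with a G-patch, a domain found in activators of DEAH-box helicases, 21 were tested. They gave 0 calls, 0 at an unadjusted p under 0.05 by edgeR and a median of 0.02.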

How the data were processed

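The deposited files held estimated counts per gene, 1 file per library. Per the labels, total RNA was depleted of ribosomal RNA and stranded paired-end libraries were made. The authors aligned reads with STAR 2.7.1a to GRCh38 and counted exons with featureCounts (1.5.1 in the submitters' processing notes, 1.6.4 in the file headers). Per the headers, counting ignored strand and divided a read among overlapping genes, so 12.3 to 14.7% of genes were not whole and reads of overlapping or antisense genes cannot be told apart. The 92 spike-ins were at 0 and left out.

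Counts were rounded, filtered (filterByExpr), scaled by TMM and tested in R 4.3.3 with edgeR 4.0.16 (quasi-likelihood, two-sided, Benjamini-Hochberg over all genes, threshold 0.05), all 6 libraries in one fit and no replicate block. The SE is the size of the log2 fold change divided by the square root of F. TPM used exon length. DESeq2 1.42.0, limma 3.58.1 (voom), other scalings, filters, unrounded counts, members with little overlap, a replicate block and leaving out each library were the alternatives, and a correction for exon GC was added after seeing the data. Paralog ratios used exact permutation tests in scipy 1.17.1. On simulated counts from these libraries, edgeR recovered 1% of 200 genes changed by a log2 fold of 1 (21886 genes tested) and 59% at a log2 fold of 2 (21804 tested, 8 of 126 calls false).

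Replicates of a group differed beyond sampling noise (chi-square per degree of freedom 11.5 to 147), so each was a separate library; the labels do not say that they were separate cultures, and p-values measure only the spread between these libraries. The labels give no batch. Members, roles and lists were chosen with earlier results of these data known. Named were a list fixed by role, the 4 members of each family with the lowest p, the 3 with the highest TPM, paralog pairs and members that failed the filter. DDX24, DDX47, DDX49, DDX55 and every other member named were chosen after their values were seen.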

Additional observations from a re-analysis of the deposited data

How the results depend on the processing

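The count of members called (0 in either direction) changed under 4 of the alternatives tried. DESeq2 called 1 member lower, and leaving out 1 library gave 0 to 1 lower (DDX10, without EtOH replicate 2) and 0 higher. With the replicate number as a block, 1 member was called lower, DDX10 (edgeR adjusted p = 0.0250), where 3.01% of all genes were called. The numbers were not treated as pairs, since same-numbered libraries correlated in their deviations by 0.06, 0.51 and 0.22. The block gave exact p of 0.5 to 0.75 for the paralog ratios, whose smallest possible p is 0.25. A GC correction with the replicate block, added after seeing the data, called 1 member lower (DDX10, 0.0142) and 1 higher (DDX5, 0.0182), where 4.83% of all genes were called, and put 4 members lower at an unadjusted p under 0.05, as it did 10.2% of all genes. That count, 2 in the reported fit, was 1 without the filter (3.92% of all genes) and 1 with the GC correction alone (6.35% of all genes). It was also 1 among members with under 5% of exon bases inside another gene, which leaves out DDX31. When 1 library was left out it was 1 to 3 (2.97 to 9.87% of all genes). The higher count of 1 was 1 to 2 when 1 library was left out. It was 2 without EtOH replicate 2 (10.7% of all genes) or EtOH replicate 3 (3.26% of all genes). Members with groups apart, 7 as reported, numbered 7 to 17 when 1 library was left out (21.8 to 41.6% of all genes). The 17 came without EtOH replicate 2, where 41.6% of all genes had groups apart. Over the named members, 411 of the recomputed log2 fold changes kept direction and call, 47 turned direction and 5 gained a call (DDX10 in 4 and DDX5 in 1). Turned values were small outside the left-out libraries: DDX23 was 0.00235 with limma-voom, 0.0202 with the block and 0.0379 with GC correction and block, DHX29 was 0.0144 with limma-voom and 0.00938 with the block, and DHX36 was 0.00184 with limma-voom. DDX46 was -0.0167 with RLE size factors, -0.00142 without the filter, -0.0144 with DESeq2, -0.0110 with the GC correction and -0.0312 with GC correction and block. DHX40 was -0.00315 and -0.00254 with the GC correction, alone and with the block, and DDX39A was -0.11 with it alone. With 1 library left out, the log2 fold changes that turned ranged from -0.28 to 0.12 for DDX18, -0.46 to 0.48 for DDX23, -0.62 to 1.11 for DDX39A, -0.0521 to 0.24 for DDX3X, -0.61 to 0.19 for DDX41, -0.10 to 0.13 for DDX46, -0.17 to 0.0430 for DDX60, -0.14 to 0.31 for DHX15, -0.66 to 0.22 for DHX16, -0.15 to 0.19 for DHX29, -0.29 to 0.0522 for DHX30, -0.16 to 0.20 for DHX36, -0.28 to 0.19 for DHX38 and -0.0510 to 0.14 for DHX40. DHX minus DDX medians were -0.03 with the block and -0.06 with GC correction and block. The cause of these shifts was not tested. Depth limits the 5 members that failed the filter, with 2 to 52 counts over all libraries.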
